A study of Mus musculus with 4 samples.

Results

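The 10 genes described here are antagonists, feedback targets and partners of canonical Wnt signalling: *Dkk1*, *Sfrp1*, *Sfrp2*, *Sfrp5*, *Notum*, *Nkd1*, *Nkd2*, *Axin2*, *Rspo3* and *Lef1*. They were picked by gene symbol, as rows of the deposited count matrices, and are 10 of 31055 genes in those matrices. ScRNA-seq had been run on the tail-side part of E8.5 mouse embryos of the C57BL/6 strain, from crosses of *Grhl3*+/- parents. Cells of 5 wild-type (WT) embryos formed 1 pool and cells of 3 *Grhl3*-null embryos formed another, and each pool was loaded into 2 droplet reactions, giving 4 libraries. A difference between genotypes is thus one between a pair of pools, and replicate libraries vary by technical steps only, not by embryo. *Grhl3*, a transcription factor gene of the surface ectoderm, gave 878 and 803 UMIs (unique molecular identifiers, which mark single captured transcripts) in the WT libraries against 12 and 14 in the null libraries.

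Canonical Wnt ligands bind Frizzled and LRP receptors and thereby stabilise β-catenin, which enters the nucleus and acts with TCF/LEF factors such as LEF1. Cells restrain this signal at several levels. DKK1 blocks the LRP co-receptors, the SFRP proteins resemble the ligand-binding part of Frizzled and can sequester ligands, and NOTUM is a secreted enzyme that removes the lipid that ligands need. NKD1 and NKD2 bind Dishevelled inside the cell and AXIN2 is a scaffold of the complex that destroys β-catenin, and their genes are themselves switched on by the pathway in many tissues. RSPO3 acts the other way, since it keeps Frizzled and LRP receptors at the membrane. In the elongating tail of the embryo, Wnt signals maintain the neuromesodermal progenitors (NMPs) and pattern the mesoderm that leaves them.

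The TCF/LEF core motif was searched for in the promoters of the members, since binding there is the usual route by which the pathway switches on its targets. RefSeq promoters (GRCm38.p6) were at hand for 7 of the 10 genes, namely *Dkk1*, *Sfrp2*, *Sfrp5*, *Nkd1*, *Nkd2*, *Axin2* and *Lef1*. The letters CTTTG followed by AA, by AT, by TA or by TT, so that a site matches only 1 of these motifs, were searched on both strands of the 250 bases before each start site. Of 32851 promoters of all genes, 14.8% held at least 1 of them. *Dkk1* held 2 matches, 1 of the 4 start sites of *Lef1* held 1, and the other 5 genes held none. A match describes letters only, and the absence of one in this window says nothing of factor binding elsewhere. Shown are the stretch of *Dkk1* that holds both matches (chr19:30549588-30549613, minus strand, 5′ to 3′), which lies before the RefSeq start but within the GENCODE gene, the window before the *Lef1* start that holds 1 match (chr3:131156044-131156293, plus strand, within an intron of the longer transcripts), and for contrast the window of *Axin2* (chr11:108920099-108920348, plus strand), the gene most widely read as a Wnt target, which has no match. Capitals mark the motif on either strand.
Dkk1: CTTTGAAatcccatcccggCTTTGTT
Lef1: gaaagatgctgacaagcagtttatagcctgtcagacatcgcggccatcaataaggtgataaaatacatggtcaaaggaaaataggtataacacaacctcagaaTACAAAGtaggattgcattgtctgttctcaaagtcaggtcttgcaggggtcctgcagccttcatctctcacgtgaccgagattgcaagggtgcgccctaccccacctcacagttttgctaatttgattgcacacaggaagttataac
Axin2: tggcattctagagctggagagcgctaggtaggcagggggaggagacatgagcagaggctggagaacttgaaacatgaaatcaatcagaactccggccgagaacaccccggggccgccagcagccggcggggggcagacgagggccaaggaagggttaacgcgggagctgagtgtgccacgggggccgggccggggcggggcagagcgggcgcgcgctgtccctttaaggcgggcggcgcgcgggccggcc

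After filtering, 20198 of 24239 cells remained, with a median of 33391 to 38070 UMIs per cell in the 4 libraries. Pairs of libraries shared between 7 and 16 cell barcodes. Clustering without the 10 members gave 17 clusters, of which 15 took the name of a cell type by markers and 2 stayed unnamed and are called by their leading genes. The somitic mesoderm-like class held 10 markers of its own type and 4 of lateral plate mesoderm among its leading genes. At a clustering resolution of 0.8 the class of that name held 1900 cells in place of 3130. A lateral plate mesoderm-like class of 1100 cells, with no namesake in the main clusters, was called there. The share of lateral plate cells in the somitic class was not tested, so "somitic" below names the whole class. The erythroid-like class served as background for free RNA in the droplets. Some properties moved with genotype and touch every comparison below. The pre-somitic mesoderm-like class held 984 WT and 8 null cells, and 968 of its WT cells were female and 1 was male. Male cells were 23.1% and 23.6% of the WT libraries against 47.0% and 48.1% of the null libraries, so that the pools differ in the embryos that gave each class. The neuroepithelium-like class held 135 male and 812 female WT cells against 886 male and 172 female null cells. The Mesenchyme 2-like class held 99 and 679 against 488 and 165. The balance was closer in the NMP-like class, at 507 and 946 against 498 and 712. A fold change over all cells of a class mixes both sexes and can lie outside the values by sex. The summed level of 12 posterior Hox genes, which rises with later and more caudal cells, was 109 and 113 CPM (UMIs scaled to a total of 1000000 for the library or class) in WT against 24.5 and 23.8 CPM in null. The part of sex, embryo and axial level in the differences below was not tested. Values in male and in female cells, where given, describe the split by sex and do not test that part.

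In WT cells the members fell into different classes rather than a shared one, as the heat map of WT levels shows. *Dkk1* (chr19:30545863-30549665, minus strand) was highest in the somitic mesoderm-like class, at 105 and 111 CPM in the 2 WT libraries (108 ± 4.38, SD, n = 2), followed by the notochord-like class at 88.2 and 90.2 and the pre-somitic class at 81.8 and 78.5. The libraries of these 3 classes did not overlap, so the order held in both. The somitic class alone held 49.4% of the *Dkk1* UMIs of a WT library. A *Dkk1* UMI was found in 612 of 978 somitic cells of the first WT library, or 62.6% (95% exact binomial interval 59.5 to 65.6, which covers counting error only), and in 36.2% when each cell was thinned to 7500 UMIs. In erythroid-like cells of the same library the shares were 4.41% and 1.47%, at median depths of 32572.5 UMIs in somitic and 40083 in erythroid-like cells.

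**Figure D1:**
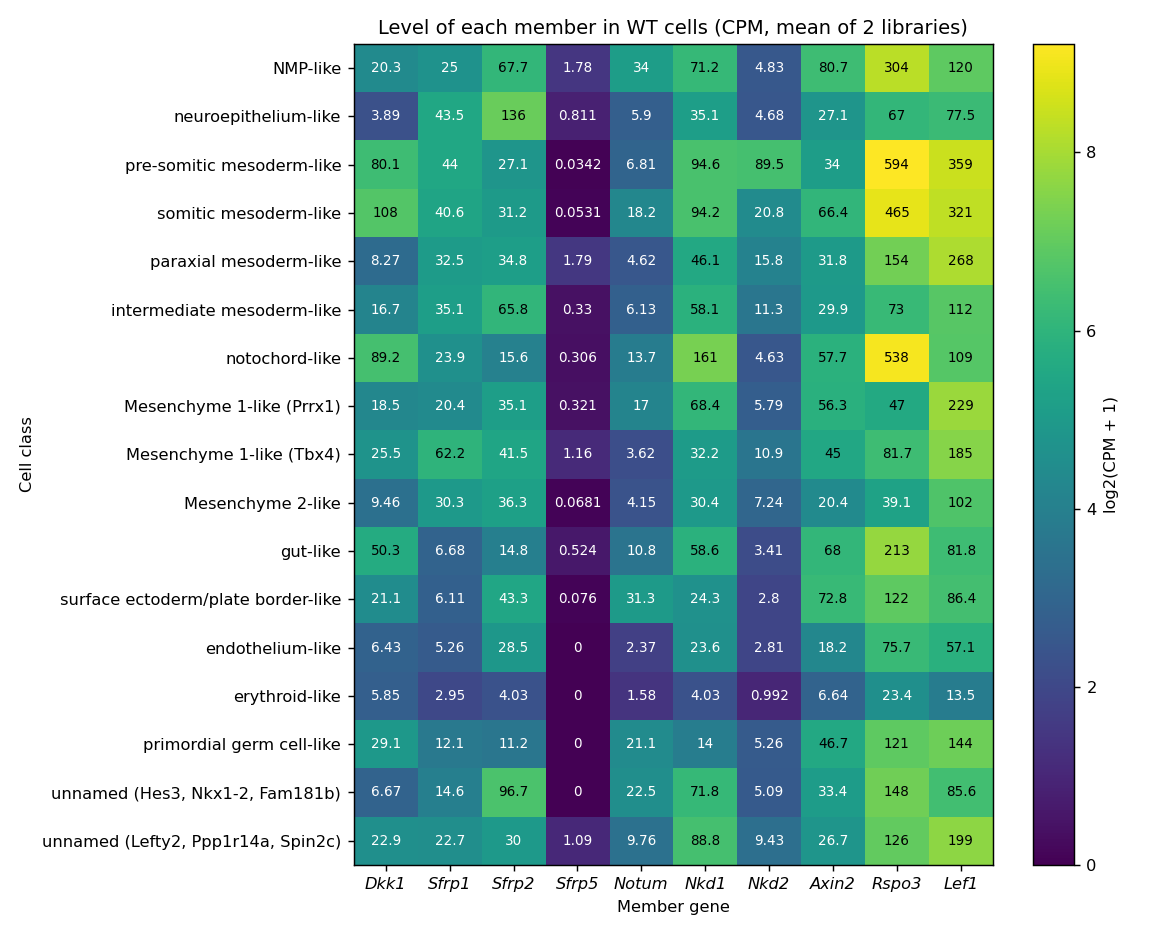
Mean level of each member (columns) in each cell class (rows) of the 2 WT libraries, printed in CPM and coloured by log2(CPM + 1). *Rspo3* and *Lef1* reach 594 and 359 CPM in the pre-somitic class, *Dkk1* 108 CPM in the somitic class and *Sfrp2* 136 CPM in the neuroepithelium-like class, while *Sfrp5* stays under 2 CPM everywhere.

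The *Sfrp* genes differed among themselves. *Sfrp2* (chr3:83766321-83774316, plus strand) was a gene of neural cells, at 132 and 141 CPM in the neuroepithelium-like class and 109 and 84.8 in the small *Hes3*-led unnamed class. The NMP-like class at 68.9 and 66.5 and the intermediate mesoderm-like class at 67.0 and 64.6 followed and overlapped. *Sfrp1* (chr8:23411502-23449632, plus strand) was spread over mesoderm and neural classes. It was highest in the small *Tbx4*-led Mesenchyme 1-like class at 56.4 and 68.0 CPM, followed without a gap between the next 2 by the pre-somitic class at 44.7 and 43.4 and the neuroepithelium-like class at 42.0 and 44.9. Levels of *Sfrp1* in gut-like and surface ectoderm cells stood near 6 CPM. *Sfrp5* (chr19:42197971-42202252, minus strand) gave only 316 UMIs in all WT cells, of which 134 were in the NMP-like and 95 in the paraxial mesoderm-like class.

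*Notum* (chr11:120653788-120661175, minus strand) was highest in the NMP-like class at 34.6 and 33.3 CPM, followed by a class of surface ectoderm and neural plate border cells, called surface ectoderm/border-like, at 31.7 and 31.0, and these did not overlap. It overlaps the antisense gene *Notumos* in the annotation. Its UMIs lay 37.1% in the NMP-like class, so NMP-like cells were the main source of this secreted inhibitor. *Axin2* (chr11:108920349-108950783, plus strand) had the same 2 leading classes, at 81.2 and 80.2 CPM in NMP-like cells and 71.1 and 74.4 in surface ectoderm/border-like cells. The gut-like class, at 64.1 and 72.0, overlapped the latter, and the somitic class, at 64.9 and 68.0, overlapped the gut-like one.

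*Nkd1* (chr8:88521354-88594884, plus strand) was highest in the notochord-like class at 167 and 156 CPM, clear of the pre-somitic class at 93.2 and 96.0 and the somitic class at 95.5 and 92.9, which overlapped. Its relative *Nkd2* (chr13:73818534-73847631, minus strand) was instead a gene of the pre-somitic class, with 90.2 and 88.8 CPM there, 20.7 and 20.8 in the somitic and 15.7 and 15.9 in the paraxial class. The pre-somitic class, 9.30% of WT cells, held 39.6% of the *Nkd2* UMIs of a WT library. The notochord-like class, first for *Nkd1*, had only 3.76 and 5.51 CPM of *Nkd2*.

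*Rspo3* (chr10:29452416-29535867, minus strand) ran at 587 and 602 CPM in the pre-somitic, 586 and 490 in the notochord-like, 468 and 462 in the somitic and 307 and 301 in the NMP-like class. These 4 classes did not overlap, though the higher notochord-like library came within 2 CPM of the pre-somitic ones. *Lef1* (chr3:131110471-131224356, plus strand) followed the mesoderm, at 357 and 361 CPM in the pre-somitic, 320 and 323 in the somitic, 258 and 279 in the paraxial and 219 and 239 in the *Prrx1*-led Mesenchyme 1-like class. Both genes were lowest in erythroid-like cells, at 25.1 and 21.7 CPM for *Rspo3* and 14.3 and 12.6 for *Lef1*.

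Across the 16 classes with at least 10 cells in both WT libraries, the profiles (log2 of CPM plus 1) of *Nkd2* and *Lef1* were most alike among the members (r = 0.83), followed by *Axin2* and *Notum* (r = 0.81) and *Dkk1* and *Rspo3* (r = 0.77). The lowest value was that of *Dkk1* and *Sfrp2* (r = -0.27). These values describe classes that share libraries and depth. Of 9825 genes with at least 10 CPM in some class, those most like *Axin2* were *Fbxl14* (r = 0.95), *Wnt5b* (r = 0.91) and *Pid1* (r = 0.90). Most like *Rspo3* were *AW551984* (r = 0.95), *Ddit4* (r = 0.93) and the somite clock gene *Hes7* (r = 0.92), and most like *Lef1* were *Pcolce2* (r = 0.95), *Ifitm1* (r = 0.94) and *Chchd7* (r = 0.91). For *Nkd2* they were *Gzmk* (r = 0.90), *Clasrp* (r = 0.89) and *Pcolce2* (r = 0.88), for *Nkd1* *Shf* (r = 0.93), *Ppp1cb* (r = 0.91) and *Commd1* (r = 0.91), and for *Notum* *Aspscr1* (r = 0.87), the caudal gene *Cdx1* (r = 0.86) and *Evx1os* (r = 0.85). *Dkk1* was most like *Uap1l1* (r = 0.89), *Ypel3* (r = 0.88) and *Cpa6* (r = 0.84), *Sfrp1* most like *Scoc* (r = 0.91), *Exo1* (r = 0.90) and *Utp6* (r = 0.89), and *Sfrp2* most like *Rnps1* (r = 0.91), *Lsm14b* (r = 0.91) and *Scd1* (r = 0.89). At its low level *Sfrp5* found no close match, the nearest being *Zdhhc6* (r = 0.66), *9430038I01Rik* (r = 0.65) and *Aldh1a2* (r = 0.63).

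Single cells of 1 class also differed in these genes together. Of 540 pairs of members by class, 23 had a correlation of at least 0.3 in size in both WT libraries. The strongest lay in gut-like cells, where *Nkd1* and *Rspo3* had r = 0.61 and 0.66 in WT and 0.72 and 0.68 in null, *Nkd1* and *Axin2* had r = 0.63 and 0.56 in WT and 0.73 and 0.72 in null, and *Axin2* and *Rspo3* 0.63 and 0.53 in WT and 0.75 and 0.75 in null. In somitic cells *Dkk1* and *Rspo3* had r = 0.45 and 0.51 in WT and 0.43 and 0.40 in null. In NMP-like cells *Rspo3* ran with *Axin2* (0.46 and 0.48 in WT) and against *Sfrp2* (-0.41 and -0.40). In the neuroepithelium-like class *Nkd1* and *Rspo3* had r = 0.44 and 0.42 in WT against 0.10 and 0.15 in null. All are values across cells of 1 library, which share depth and are not replicates.

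Summed over all cells of a library, the null pool had less of most members. With edgeR's quasi-likelihood test and Benjamini-Hochberg adjustment over 17168 genes, 6 of the 10 were lower at an adjusted p under 0.05, where 19.2% of all genes were lower, and 2 were higher, where 17.4% were higher. *Dkk1* fell from 35.5 and 39.1 CPM in WT to 20.5 and 19.9 CPM in null. *Nkd2* fell from 14.2 and 14.7 to 7.11 and 6.61 CPM and *Rspo3* from 228 and 240 to 163 and 165 CPM. The log2 fold changes of null against WT were -0.92 ± 0.051 (SE, adjusted p = 0.000119) for *Dkk1*, -1.10 ± 0.043 (adjusted p = 2.16e-07) for *Nkd2* and -0.54 ± 0.024 (adjusted p = 5.30e-07) for *Rspo3*. *Nkd1* (-0.33), *Notum* (-0.31) and *Lef1* (-0.30) fell less, *Sfrp2* rose by 0.12 and *Sfrp5*, from a very low level, by 1.02 on the log2 scale. *Axin2* (-0.04, adjusted p = 0.295) and *Sfrp1* (0.01, adjusted p = 0.762) passed no test. In female cells alone the direction turned for *Sfrp2* (-0.19), *Sfrp5* (-0.47) and *Notum* (0.093).

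Such sums hold the numbers of cells of each class as well as the level in a cell, and in these sums fewer cells of a class and less RNA of the gene per cell cannot be told apart. The WT level of each class was therefore weighted by the share of UMIs that the class had in the null libraries. For *Nkd2* these shares alone gave a log2 ratio to WT of -0.73, of the -1.07 measured. For *Rspo3* they gave -0.39 of -0.51, and for *Dkk1* -0.42 of -0.89. The remainder was -0.46 for *Dkk1*, -0.34 for *Nkd2*, -0.12 for *Rspo3*, -0.14 for *Nkd1*, -0.13 for *Lef1* and -0.19 for *Notum*. The weighting takes the WT level of each class as fixed.

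**Figure D2:**
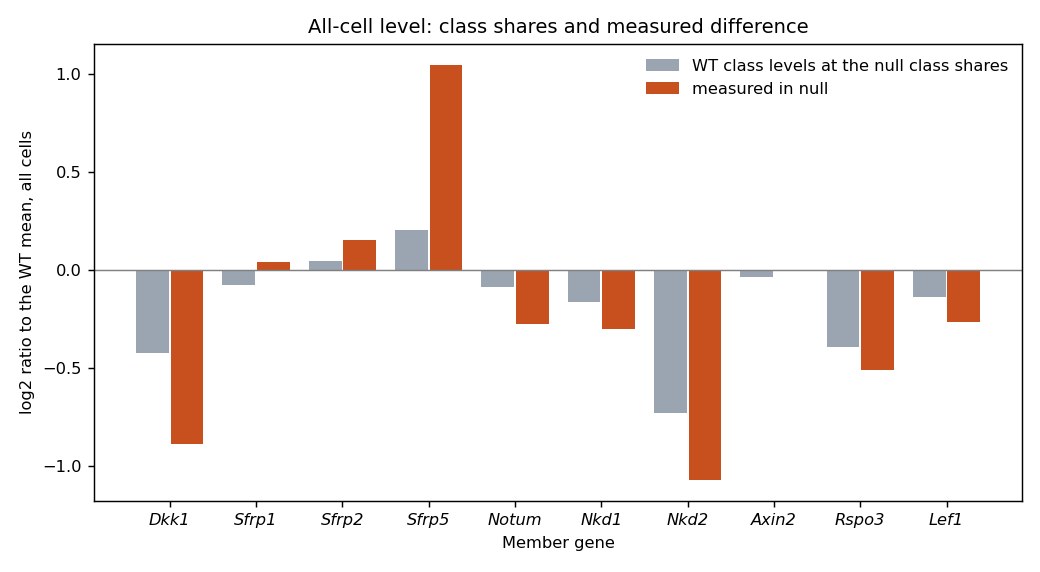
Log2 ratio to the WT mean over all cells, for each member: grey bars weight the WT class levels by the class shares of the null libraries, and orange bars give the null level as measured. For *Nkd2* and *Rspo3* the grey bars reach -0.73 and -0.39 and the orange ones -1.07 and -0.51, and for *Dkk1* they reach -0.42 and -0.89.

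Within classes, 15 of which had at least 10 cells in every library, members were tested 135 times. They were lower in null in 32 tests (23.7%) and higher in 10 (7.41%), where over all genes in the same classes 6.64% were lower and 5.73% higher. The tests of a class share libraries and are not independent. Members passed in most classes that had many cells. In the neuroepithelium-like class *Lef1*, *Rspo3*, *Nkd1* and *Notum* were lower (4 of 10, of all genes 12.8%) and *Sfrp1* and *Axin2* higher (2 of 10, of all genes 10.6%). In the Mesenchyme 2-like class 6 of 9 were lower (of all genes 11.2%) and *Sfrp1* was higher (of all genes 11.3%). In the gut-like class *Rspo3*, *Axin2*, *Notum* and *Nkd2* were lower (4 of 10, of all genes 10.3%) and *Sfrp5* was higher (of all genes 9.66%). In the NMP-like class *Notum*, *Dkk1* and *Sfrp5* were lower (3 of 10, of all genes 12%) and none higher (of all genes 9.11%).

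In the paraxial mesoderm-like class *Lef1*, *Nkd1* and *Nkd2* were lower (3 of 10, of all genes 12.1%) and *Sfrp2* was higher (of all genes 8.82%). In the somitic class *Dkk1* and *Nkd2* were lower (2 of 9, of all genes 10.6%) and *Sfrp2* and *Axin2* higher (2 of 9, of all genes 9.62%). The surface ectoderm/border-like class went the other way, with *Rspo3* and *Nkd1* higher (2 of 9, of all genes 6.53%) and none lower (of all genes 8.87%). In the *Prrx1*-led Mesenchyme 1-like class *Dkk1* and *Rspo3* were lower (2 of 9, of all genes 2.79%) and *Sfrp2* higher (of all genes 3.57%). In the notochord-like class *Dkk1*, *Nkd1* and *Rspo3* were lower (3 of 9, of all genes 2.2%) and none higher (of all genes 1.77%). In the intermediate mesoderm-like class *Dkk1* was lower (1 of 9, of all genes 1.21%) and none higher (of all genes 1.13%).

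The *Lefty2*-led unnamed class had *Dkk1*, *Rspo3* and *Lef1* lower (3 of 9, of all genes 1.92%) and none higher (of all genes 2.27%), and the *Hes3*-led unnamed class had *Rspo3* lower (1 of 7, of all genes 1.31%) and none higher (of all genes 1.04%). Both have cells of low depth, with medians between 16029 and 16813.5 UMIs. No member passed in the endothelium-like class (of all genes 0.428% higher and 0.481% lower), the erythroid-like class (0.326% and 0.303%) or the *Tbx4*-led Mesenchyme 1-like class (0.46% and 0.268%), in which few genes passed at all. The members not tested were at too low a count, *Sfrp5* in 11 of the 15 classes.

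**Figure D3:**
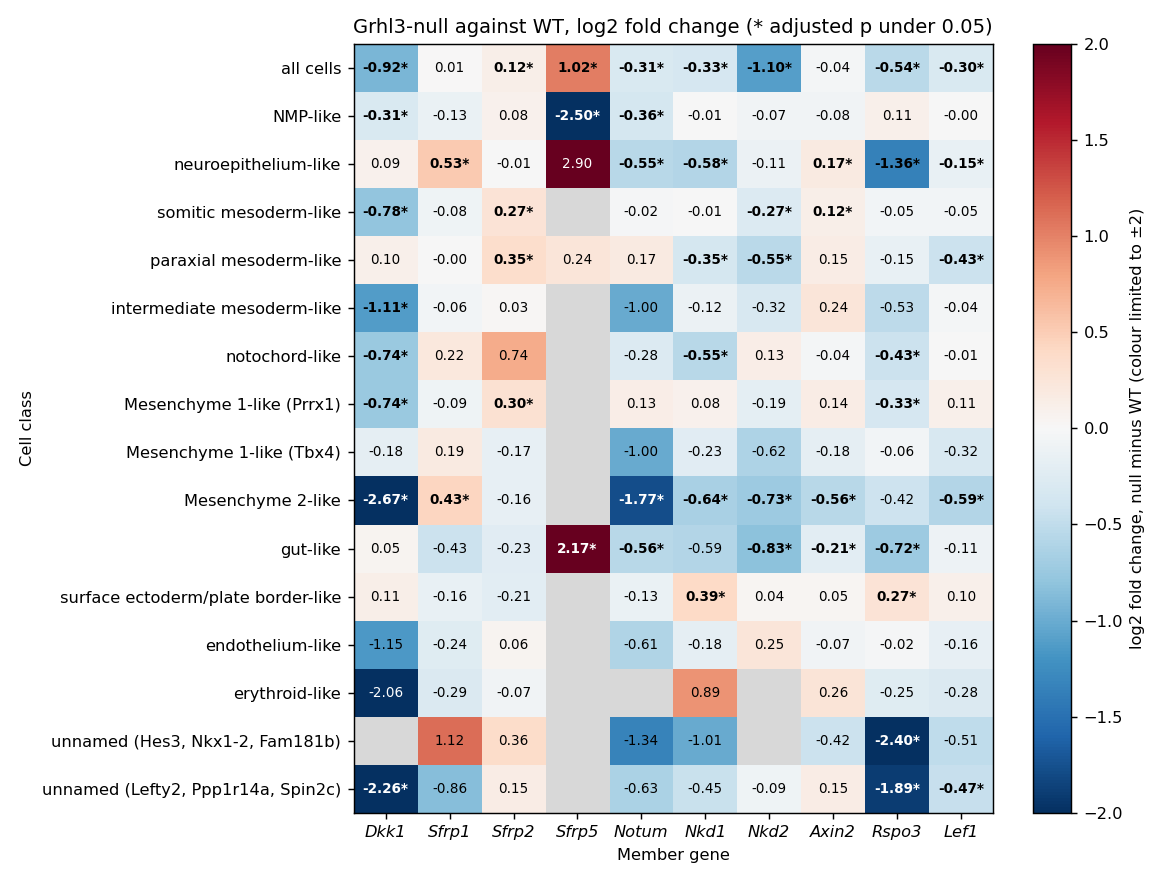
Log2 fold change of null against WT for each member (columns) in all cells and in the 15 tested classes (rows), with an asterisk at an adjusted p under 0.05 (edgeR) and grey where the gene was too low to test. *Dkk1* is lower in 7 of 14 classes and higher in none, and *Sfrp2* is higher in 3 of 15 and lower in none.

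*Dkk1* was the member lower in most classes, 7 of the 14 in which it was tested. In the somitic class, its main source, it fell from 105 and 111 CPM to 62.1 and 63.9 CPM (log2 fold change -0.78 ± 0.038, adjusted p = 7.98e-18). That class may hold lateral plate mesoderm cells too, as stated above. The share of somitic cells with a *Dkk1* UMI after thinning was 36.2% and 38.4% in WT against 27.5% and 27.6% in null. In the *Prrx1*-led Mesenchyme 1-like class *Dkk1* fell from 19.5 and 17.5 to 11.6 and 10.1 CPM (-0.74 ± 0.087, adjusted p = 1.64e-05), and in the Mesenchyme 2-like class from 9.96 and 8.95 to 1.07 and 1.86 CPM (-2.67 ± 0.22, adjusted p = 1.22e-10). In all 3 the null libraries lay below both WT libraries. These 3 differences, picked for passing in all cells of a class, also passed in male cells alone and in female cells alone. Those come from different embryos but are parts of the same cells, so this is not independent support. The log2 fold changes in male and in female cells were -0.68 and -0.83 in the somitic, -0.52 and -0.77 in the Mesenchyme 1-like and -1.71 and -2.38 in the Mesenchyme 2-like class. The notochord-like class, with 88.2 and 90.2 CPM in WT and 65.9 and 42.7 CPM in null, did not hold across sexes, with -2.47 in male and 0.62 in female cells. Gut-like cells overlapped, at 40.4 and 60.3 CPM in WT and 58.7 and 47.2 CPM in null. *Dkk1* did not pass in the endothelium-like class (-1.15, adjusted p = 0.081) or in the erythroid-like background (-2.06 ± 0.56, adjusted p = 0.0758). Male erythroid-like cells stood at 1.33 and 11.4 CPM in WT and 1.70 and 0.859 CPM in null. Female ones stood at 0 and 0.883 against 2.38 and 0.647 CPM.

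Among the other secreted antagonists the *Sfrp* genes were higher where they passed, *Sfrp5* in NMP-like cells excepted. *Sfrp1* rose in the neuroepithelium-like class from 42.0 and 44.9 to 64.1 and 63.5 CPM (0.53 ± 0.046, adjusted p = 4.76e-08), with 0.30 (adjusted p = 0.00508) in male and 0.04 (adjusted p = 0.813) in female cells. In the Mesenchyme 2-like class it stood at 27.5 and 33.1 CPM in WT and 45.1 and 37.0 CPM in null, but at 1.49 in male and -0.84 in female cells on the log2 scale. *Sfrp2* rose in the paraxial class from 34.99 and 34.7 to 45.6 and 45.2 CPM (0.35 ± 0.043, adjusted p = 1.69e-05), with 0.90 (adjusted p = 1.80e-06) in male and 0.07 (adjusted p = 0.744) in female cells. It also rose in the somitic class by 0.27 (0.14 in male and 0.13 in female cells, neither passing alone) and in the *Prrx1*-led Mesenchyme 1-like class by 0.30 (0.19 and 0.38, the female value passing). In its main class, the neuroepithelium-like one, it overlapped, at 132 and 141 CPM in WT and 136 and 139 CPM in null, but male cells gave 0.23 (adjusted p = 0.0171) and female cells -0.27 (adjusted p = 0.000882). *Sfrp5* gave 1.87 and 1.68 CPM in WT NMP-like cells against 0.47 and 0.13 CPM in null ones, or 134 UMIs against 21 (log2 fold change -2.50 ± 0.33, adjusted p = 6.67e-05) and 14 against 84 in gut-like cells (2.17 ± 0.39, adjusted p = 0.000339). The fall in the NMP-like class lay in female cells, at 3.23 and 2.56 CPM in WT against 0.107 and 0 CPM in null. Male NMP-like cells overlapped, at 0 and 0.409 against 0.398 and 0 CPM. In the neuroepithelium-like class *Sfrp5* gave 34 UMIs in WT and 302 in null, but 1 WT library lay at 0.138 and the other at 1.48 CPM, and the adjusted p was 0.067.

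*Notum* fell in the NMP-like class, its main source, from 34.6 and 33.3 to 25.8 and 27.8 CPM (-0.36 ± 0.048, adjusted p = 4.60e-05). In female cells the value was -0.44 (adjusted p = 3.84e-05) and in male cells -0.10 (adjusted p = 0.557). In the surface ectoderm/border-like class it overlapped, at 31.7 and 31.0 CPM in WT and 27.3 and 31.8 CPM in null. It was also lower in the gut-like (-0.56), neuroepithelium-like (-0.55) and Mesenchyme 2-like (-1.77) classes, at levels under 12 CPM, and gave 0.19 in the neuroepithelium-like class at a clustering resolution of 0.8, which held 1018 cells in place of 2258.

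The intracellular feedback genes did not move as 1 group. *Nkd1* overlapped in the somitic class, at 95.5 and 92.9 CPM in WT and 94.3 and 94.4 CPM in null. It also overlapped in the NMP-like class, at 71.5 and 70.9 against 70.0 and 73.0 CPM, where male cells gave -0.32 (adjusted p = 0.00141) and female cells 0.26 (adjusted p = 0.00104). It fell in the notochord-like class from 167 and 156 to 93.3 and 125 CPM (-0.55 ± 0.11, adjusted p = 0.00177) and in the paraxial class from 44.8 and 47.4 to 38.3 and 35.5 CPM (-0.35 ± 0.048, adjusted p = 5.33e-05). The paraxial difference passed in both sexes (-0.45 and -0.59). In the surface ectoderm/border-like class *Nkd1* rose from 24.4 and 24.2 to 29.99 and 35.7 CPM (0.39 ± 0.092, adjusted p = 0.00307). In the neuroepithelium-like class it fell from 37.0 and 33.3 to 23.5 and 24.3 CPM (-0.58 ± 0.063, adjusted p = 1.06e-06), but the female value was -1.08 and the male one 0.40.

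*Nkd2* fell in the paraxial class from 15.7 and 15.9 to 11.95 and 10.1 CPM (-0.55 ± 0.083, adjusted p = 0.00014), in male (-0.54) as in female (-0.77) cells. In the somitic class it fell from 20.7 and 20.8 to 17.2 and 17.4 CPM (-0.27 ± 0.063, adjusted p = 0.0014), with -0.52 (adjusted p = 0.00321) in male and -0.02 (adjusted p = 0.904) in female cells. The 8 null cells of the pre-somitic class, its main source in WT, held 5 *Nkd2* UMIs, too few to compare. *Axin2* did not pass in its top 2 classes. It stood at 81.2 and 80.2 CPM in WT and 76.1 and 78.3 CPM in null (NMP-like, -0.08, adjusted p = 0.108), and at 71.1 and 74.4 against 74.8 and 79.5 CPM (surface ectoderm/border-like, 0.05, adjusted p = 0.672). In the latter class male cells gave -0.31 (adjusted p = 0.0142) and female cells 0.25 (adjusted p = 0.0347). Where it passed it went both ways, with 0.17 in the neuroepithelium-like, 0.12 in the somitic, -0.21 in the gut-like (0.28 in female cells) and -0.56 in the Mesenchyme 2-like class (0.087 in male cells).

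*Rspo3*, the agonist of the set, fell most in the 2 unnamed classes of low depth, by 2.40 (adjusted p = 1.14e-06) in the *Hes3*-led and by 1.89 (adjusted p = 2.10e-10) in the *Lefty2*-led class on the log2 scale. In the neuroepithelium-like class it fell from 68.1 and 65.9 to 25.3 and 28.01 CPM (-1.36 ± 0.052, adjusted p = 2.70e-13), and it passed in male (-0.50) and female (-1.10) cells. The 12 posterior Hox genes summed to 183 and 182 CPM in the same WT cells and to 1.66 and 0.522 CPM in the null ones. In the gut-like class *Rspo3* fell from 205 and 222 to 124 and 142 CPM (-0.72 ± 0.059, adjusted p = 6.63e-07), with -1.39 in male and -0.08 in female cells. In the somitic class it stood at 468 and 462 CPM against 446 and 454 CPM (-0.05, adjusted p = 0.192), with -0.30 (adjusted p = 3.72e-07) in male and 0.13 (adjusted p = 0.00203) in female cells. It rose in the surface ectoderm/border-like class from 127 and 116 to 155 and 146 CPM (0.27 ± 0.055, adjusted p = 0.000919), where male cells gave -0.09 and female cells 0.69 and where clustering on log-normalised counts gave -0.50.

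*Lef1* differed between the mesoderm classes. In the paraxial class it fell from 258 and 279 CPM to 203 and 203 CPM (-0.43 ± 0.035, adjusted p = 1.45e-07). This held in male cells only, with -1.16 (adjusted p = 2.82e-12), while female cells went up by 0.32 (adjusted p = 0.000267). The WT paraxial cells were 123 male and 712 female, and the null ones 626 male and 123 female. In the somitic class *Lef1* stood at 320 and 323 against 312 and 312 CPM (-0.05, adjusted p = 0.236). The difference between these 2 effects was itself tested and was 0.38 on the log2 scale (adjusted p = 0.018, where 1.04% of 15331 genes passed). *Sfrp5* was the only other member whose effect differed between its 2 highest tested classes, by 2.72 between the paraxial and the NMP-like class (adjusted p = 0.000764, where 2.17% of genes passed). *Nkd1* came next with -0.57 between notochord-like and somitic cells (adjusted p = 0.0551), and the remaining 7 had adjusted p from 0.372 to 1.00. *Lef1* also fell in the Mesenchyme 2-like class, from 104 and 101 to 62.7 and 73.2 CPM (-0.59 ± 0.056, adjusted p = 1.41e-08), in which the posterior Hox sum was 302 and 276 CPM in WT and 14.0 and 20.8 CPM in null. Male cells of this class overlapped in *Lef1*, at 63.5 and 59.2 CPM in WT and 54.8 and 62.7 CPM in null. Its female cells fell from 112 and 107 to 89.4 and 89.7 CPM. At the finer clustering resolution of 0.8 the class of that name held 363 cells in place of 1519, a different set, and its values were 0.26 for *Lef1*, -1.22 for *Sfrp1* and 0.14 for *Nkd1*.

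**Figure D4:**
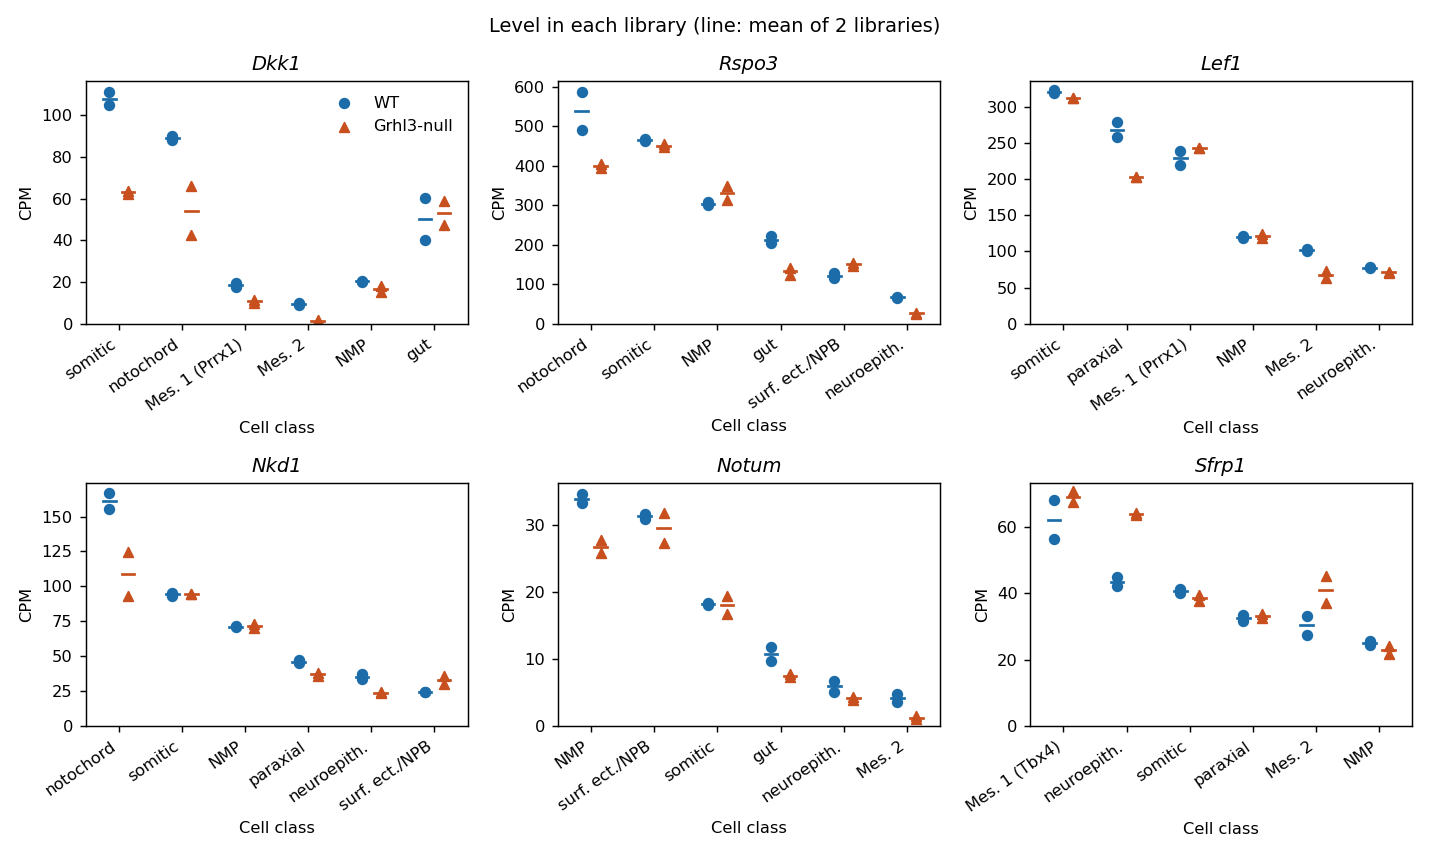
Level in CPM of 6 members in each library, in 6 classes each, with circles for the 2 WT and triangles for the 2 null libraries and a line at their mean. *Dkk1* in somitic cells is 105 and 111 in WT against 62.1 and 63.9 in null, whereas *Nkd1* in the same cells lies between 92.9 and 95.5 in all 4 libraries.

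The split by sex is the only view of these pools that uses different embryos. Each sex comes from part of the 5 WT and 3 null embryos, and how many was not known. Each fit still takes the 2 reactions of a pool as replicates, so its p does not measure variation between embryos. The calls within classes had passed in cells of both sexes together, so agreement within either sex is partly built in. Of the 42 calls within classes, 35 could be fitted in both male and female cells. The direction was the same in both for 24 of them, and 6 passed in both: *Dkk1* in the somitic, *Prrx1*-led Mesenchyme 1-like and Mesenchyme 2-like classes, *Nkd1* and *Nkd2* in the paraxial class, and *Rspo3* in the neuroepithelium-like class. All 6 were lower in null. *Dkk1* in the Mesenchyme 2-like and *Rspo3* in the neuroepithelium-like class did not pass in every alternative other than those by sex. In male WT cells *Dkk1* was at 4.42 and 3.94 CPM in the Mesenchyme 2-like class, against 1.33 and 11.4 in the erythroid-like background. In female WT cells it was at 10.9 and 9.47 CPM against 0 and 0.883. *Rspo3* in the neuroepithelium-like class was at 29.5 and 28.6 CPM in male WT cells, against 13.3 and 29.9 in the erythroid-like background. For female WT cells the values were 74.5 and 71.0 CPM against 4.13 and 18.5. In all, 19 of the 35 passed in the same direction in male and 16 in female cells, with fewer cells in each fit. The male value was opposite to the call in 5 and the female value in 6. The same counts over all called genes were not made, so none of these can be read as a trait of the members.

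**Figure D5:**
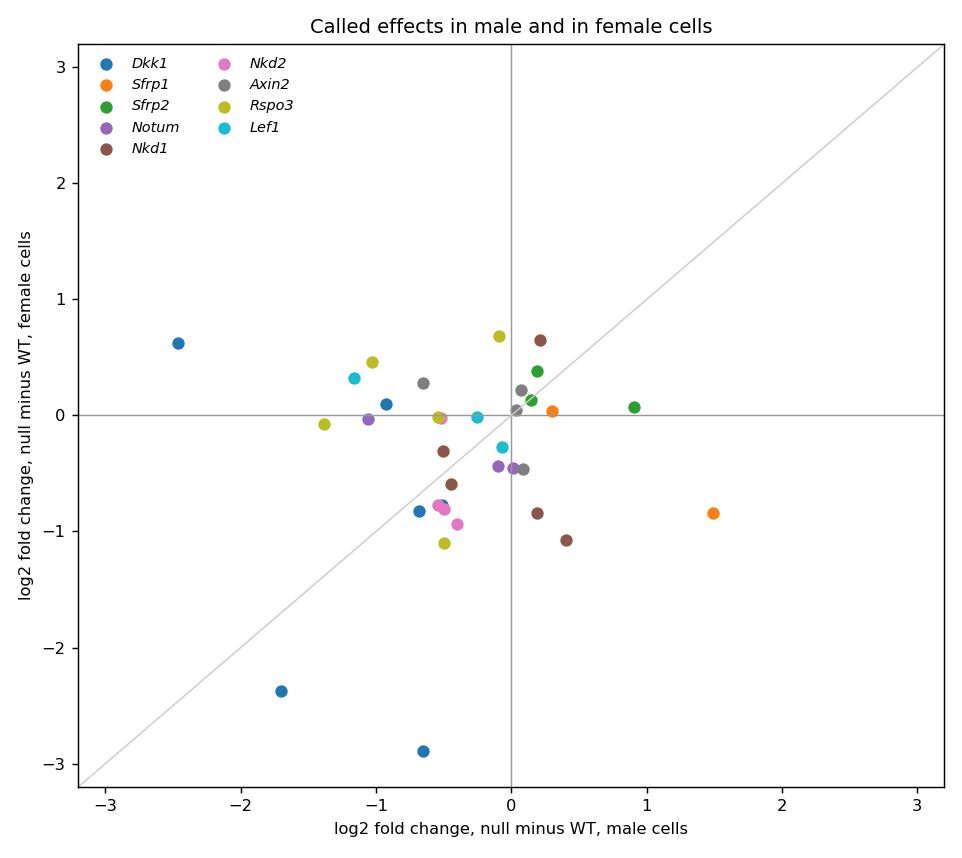
Log2 fold change of null against WT in male cells (x axis) and in female cells (y axis) for the 35 calls that could be fitted in both, coloured by gene; the diagonal marks equal values. *Dkk1* in the Mesenchyme 2-like class (-1.71 and -2.38) lies far along the lower left, and *Sfrp1* in the same class (1.49 and -0.84) and *Dkk1* in the notochord-like class (-2.47 and 0.62) lie off the diagonal.

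The rest of the pathway moved in both directions. Of 92 other Wnt genes tested in all cells, 25 were higher and 25 lower in null, with a median log2 fold change of 0.01, beside 0.00 over all genes. Of 19 ligands 10 were lower and 3 higher, of 15 receptors 1 was lower and 9 were higher, and of 10 targets 6 were lower and 2 higher, where 19.2% of all genes were lower and 17.4% higher. Among ligands, *Wnt3a*, which maintains NMPs, fell by 0.56 and *Wnt5a*, a ligand of tail elongation, by 0.32. The mesoderm targets *Tbx6* (-0.88), *Sp5* (-0.47), *T* (-0.42), *Cdx1* (-0.35) and *Cdx4* (-0.34) and the antagonist *Frzb* (-0.42) were lower. The receptors *Lgr4* (0.45), which binds R-spondins, and *Fzd7* (0.38), the factor *Tcf7l2* (0.41) and the target *Myc* (0.31) were higher. In single classes *Sp5*, a direct Wnt target, fell in somitic (-0.45), NMP-like (-0.39) and Mesenchyme 2-like (-0.87) cells, and *Wnt5a* fell in the neuroepithelium-like class by 1.43, in which *T* (-1.89) and *Cdx4* (-1.17) were lower too, while *Frzb* (0.48) and *Cdx1* (0.36) were higher there. In NMP-like and somitic cells *Tbx6* (0.05 and -0.08), *T* (0.05 and -0.06) and *Cdx4* (-0.07 and 0.02) did not pass, and *Wnt5a* was higher in somitic cells (0.14, adjusted p = 0.00156). *Cdx1* was lower in NMP-like (-0.56, adjusted p = 1.58e-09) and somitic cells (-0.36, adjusted p = 1.19e-07). *Wnt3a* was lower there too (-0.22, adjusted p = 0.00074, and -0.16, adjusted p = 0.038).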

How the data were processed

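Caudal cells of E8.5 embryos were grouped by the genotype in the sample labels. The authors made the deposited UMI counts with Cell Ranger 3.0.0 from alignment to mm10. The filter limits were those of the study: 3000 genes and 7500 UMIs or more, with mitochondrial UMIs of up to 7%. The libraries then held 226723903 and 220747840 UMIs (WT) and 226059247 and 209833527 (*Grhl3*-null).

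Clusters came from Seurat 5.3.0 and sctransform 0.4.2 (R 4.3.3) at resolution 0.4, with 30 principal components and 20 neighbours. The 3000 variable features held 9 members, which were left out, so that 2991 were used. No member was a marker for naming a class. A name required 3 markers of that cell type among the 30 leading genes, exceeding the runner-up by a factor of 1.5. Names may differ from the study's clusters. Scrublet (scanpy 1.11.5) marked at most 0.0628% of cells, so the 5% highest scores were removed in an alternative only.

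UMIs were summed per class and library and tested with edgeR 4.0.16 (TMM, filterByExpr, quasi-likelihood), adjusted by Benjamini-Hochberg over all genes of the class, at 0.05. SEs were derived from the log2 fold change and its F statistic. DESeq2 1.42.0 served as an alternative. Replicate libraries were not duplicates, with a chi-square per degree of freedom of 8.20 (WT) and 14.4 (null), and were counted as 2. A cell was called male from 2 or more UMIs of 4 Y-linked genes with no more than 2 of *Xist*, and female from 3 or more of *Xist* with no more than 1 Y-linked UMI. On simulated data for the NMP-like class (13682 genes), 200 of 200 genes changed by a log2 fold change of 2 were recovered with 12 wrong calls. The changed genes were drawn only from those above a floor of UMIs, and the variation between libraries was set in advance. Most member effects reported here are smaller, so their recovery was not tested.

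The rule for named genes covers the members, the 3 genes with the profile most like each, and the 12 other pathway genes with the largest fold change among those called with at least 10 CPM. Members and lists were chosen with earlier results of these data known. Positions are from GENCODE vM21 (mm10) and promoters from RefSeq (GRCm38.p6). Reads were not analysed here.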

Additional observations from a re-analysis of the deposited data

Results flagged for a closer look

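The genotype effect of 2 members differed between their 2 highest tested classes by an edgeR test of the difference. For *Sfrp5* the effect in paraxial minus that in NMP-like cells was 2.72 on the log2 scale (adjusted p = 0.000764). It rests on few UMIs, and in female cells alone it was 7.35 and in male cells alone -0.30. For *Lef1* the effect in somitic minus that in paraxial cells was 0.38 (adjusted p = 0.018), with 1.02 in male and -0.28 in female cells.

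For 7 calls the null libraries lay outside the WT libraries in opposite directions in male and in female cells. The male minus the female effect on the log2 scale was -3.09 for *Dkk1* and -1.49 for *Rspo3* in the notochord-like class. It was 2.33 for *Sfrp1* and 1.03 for *Nkd1* in the Mesenchyme 2-like class. For *Nkd1* in the neuroepithelium-like class it was 1.48, for *Axin2* in the gut-like class -0.94 and for *Lef1* in the paraxial class -1.48. These differences between the sexes were not tested. Over 120 combinations of member and class, 31 were apart in opposite directions and 21 in the same direction. Neither these counts nor the 7 calls were set beside all genes, so they cannot be read as particular to the members.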

How the results depend on the processing

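Calls of members higher in null numbered 10, and 1 with a 2-fold minimum, 16 without the filter on low counts, 6 with DESeq2, 17 at resolution 0.8 and 18 in female cells only. Calls lower in null numbered 32, and 8 with a 2-fold minimum, 21 with DESeq2 and 21 in female cells only. With DESeq2 fewer of all genes passed too. In the gut-like class they went from 1267 higher and 1347 lower to 419 and 531. In the neuroepithelium-like class they went from 1384 and 1664 to 510 and 735. Over all cells, 2995 of 17168 genes were higher and 3291 lower, and without the filter 2982 and 3446 of 23437. For female cells only these were 3011 and 3240 of 16088. At resolution 0.8 the neuroepithelium-like class gave 233 and 280. The NMP-like class gave 1461 and 1853 there, against 1246 and 1639. With a 2-fold minimum 435 of 13025 genes passed in the neuroepithelium-like class. The member counts under each alternative are thus not a trait of the members alone. The 8 members called over all cells became 2 with a 2-fold minimum, which 368 of all 17168 genes passed. Leaving out 1 library in turn gave 9 to 14 calls higher, 30 to 32 lower, 8 over all cells and 1 to 3 differences between classes, the lone library being assumed to vary like the others. The *Lef1* difference lost its call without the second WT library (adjusted p = 0.195) and that of *Sfrp5* without the second null library (adjusted p = 0.241). In male cells only, 1 difference between classes passed.

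With the replicate number as a block the counts were 13 higher, 39 lower and 8 over all cells. All genes passed more often too, over all cells 3421 higher and 3713 lower in place of 2995 and 3291. With 2 pairs the shared number does not show pairing, and same-numbered libraries did not deviate together (r = -0.000196).

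Of 50 single calls, 23 passed with the same sign in every alternative except those by sex, and 44 never turned in those. At resolution 0.8, where classes of the same name hold other cells, the Mesenchyme 2-like values became 0.26 for *Lef1*, -1.22 for *Sfrp1* and 0.14 for *Nkd1*, *Notum* in neuroepithelium 0.19 and *Dkk1* in NMP-like cells 0.12. With log-normalised clustering *Rspo3* in the surface ectoderm/border-like class was -0.50. In male cells only *Nkd1* was 0.19 and *Axin2* 0.087 in Mesenchyme 2-like cells, *Nkd1* 0.40 and *Notum* 0.0098 in neuroepithelium and *Rspo3* -0.093 in surface ectoderm/border-like cells. In female cells only *Axin2* was 0.28 in gut-like, *Sfrp1* -0.84 in Mesenchyme 2-like, *Dkk1* 0.10 in NMP-like and 0.62 in notochord-like, *Rspo3* 0.46 in notochord-like and *Lef1* 0.32 in paraxial cells, and over all cells *Sfrp2* was -0.19, *Notum* 0.093 and *Sfrp5* -0.47. The cause was not tested. Combining the pre-somitic and somitic classes, chosen after seeing the data, gave 11 higher and 35 lower, with *Nkd2* at -1.20. In the combined class 1803 of 13690 genes were higher and 2085 lower, against 1280 and 1411 of 13310 in the somitic class. *Sfrp5*, at 316 and 637 UMIs per genotype, is limited by depth.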
